A study of Mus musculus with 91 samples.

Results

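The 9 genes described here encode transcription factors and cofactors of blood stem and progenitor cells: Myb, Lmo2, Hoxa9, Hoxa7, Hoxa10, Meis1, Sox4, Hlf and Mecom. They were chosen by name from the 23956 genes of the deposited expression table. All 9 were listed in it, and 6 of them (Myb, Lmo2, Hoxa9, Hoxa7, Meis1 and Sox4) were above 0 in at least 10% of the cells, as were 9371 genes in all. The study sequenced single mouse bone marrow cells of strain C57BL/6 and genotype Gfi1-R412X/- Irf8+/-. Every cell therefore carried the R412X form of Gfi1, a zinc-finger repressor needed for making neutrophils, over an allele written as a minus, and 1 altered allele of Irf8, a factor of monocyte and dendritic cell development. The cells fell into 46 labelled GMP (granulocyte-monocyte progenitors) and 45 labelled CD11b+ GMP-P. CD11b is an integrin subunit of maturing myeloid cells. No cell of another genotype was analysed here, so nothing below measures an effect of either allele.

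The labels give one gate for both populations, negative for lineage markers and Sca-1, positive for CD117 and CD34, and high for CD16/32, after enrichment on CD117 beads. The Fluidigm C1 system, in which each cell is lysed in its own microfluidic chamber, was used for capture. The labels read here state no age, sex or number of mice. Each population therefore counts as 1 sample: differences between them carry no test, SDs are over cells, and the exact Clopper-Pearson 95% intervals of shares cover counting error only. The labels also give each population a number of its own, so the population and any capture or library run cannot be told apart.

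In textbook haematopoiesis these factors are most active in stem and early progenitor cells and are switched down as granulocytes mature. MYB drives proliferation of progenitors. HOXA proteins bind DNA together with the TALE homeodomain proteins MEIS1 and PBX, and LMO2 is an adaptor without a DNA-binding domain of its own that joins basic helix-loop-helix and GATA factors. GFI1 has been reported to repress Hoxa9 and Meis1 in myeloid progenitors.

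Values are the authors' log2(TPM + 1), where TPM is the share of transcripts scaled for transcript length to one fixed total in every cell. A gene is called lower or higher here where the population means differ by 1 or more on this scale. On that rule 4 of the 9 factors (Myb, Hoxa9, Hoxa7 and Lmo2) were lower in CD11b+ GMP-P than in GMP, none was higher, and 5 were within 1. The background was large: of the 9371 genes above 0 in at least 10% of cells, 32.0% were lower and 2.61% higher, and the median difference was -0.56. Lower genes made up 92.5% of these calls, and 82.1% with cells rescaled by the median of gene ratios. Only those 4 members had a GMP mean of 1 or more and could be lower by 1, and among the 6589 tested genes with such a mean 45.6% were lower. The median over all 9 members, 3 of which were too sparse to be tested, was -0.62, or -0.06 relative to the tested genes. The median over all genes with no filter was 0. Over the 6 tested members the median was -1.30, beside -0.56 for the tested genes. Tested genes with a GMP mean of 1 or more had a median of -0.91.

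**Figure D1:**
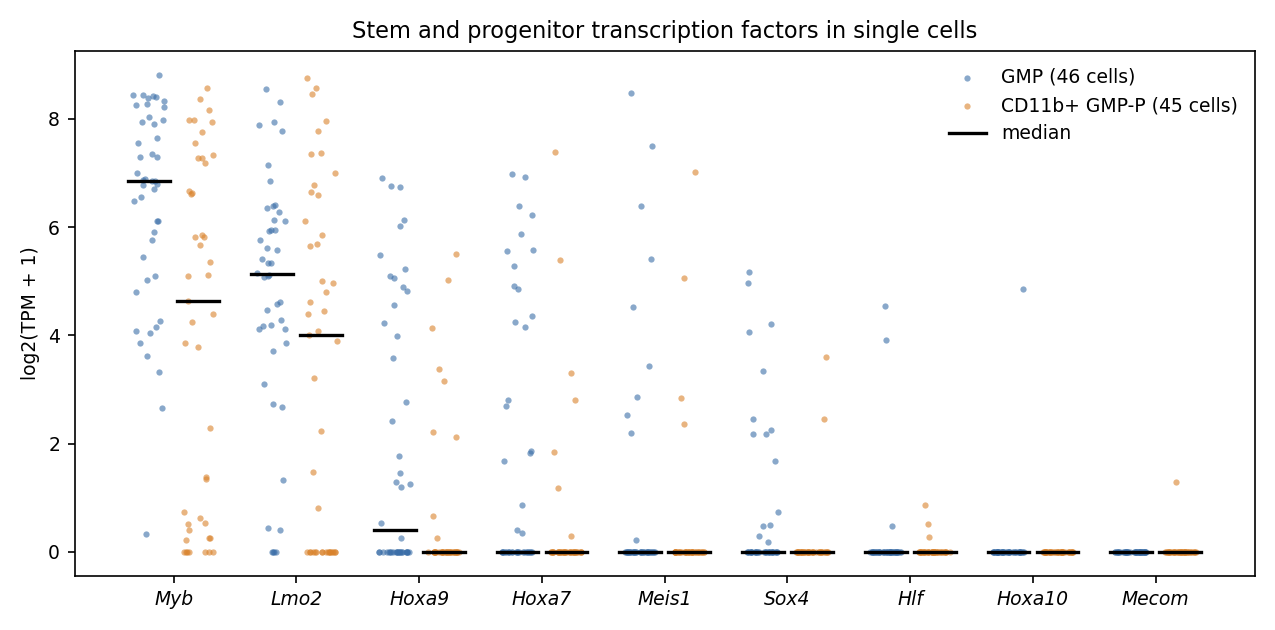
Level of each of the 9 factors in every cell, on the log2(TPM + 1) scale; GMP cells (n = 46) and CD11b+ GMP-P cells (n = 45) are drawn side by side, 1 point a cell, and the line is the median. Myb and Lmo2 were found in most cells of both populations, Hoxa9 and Hoxa7 in fewer CD11b+ GMP-P cells, and Hlf, Hoxa10 and Mecom in almost none.

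The cells were checked against their labels before the factors were compared. Mpo, the peroxidase of primary granules, was above 0 in all 46 GMP and all 45 CD11b+ GMP-P cells, with medians of 14.4 and 11.2. All 7 GMP and promyelocyte markers were lower by 1 or more in CD11b+ GMP-P, with a median of -3.06, and Mpo differed by -4.40. Among all tested genes 32.0% were lower and 2.61% higher. All 9 late neutrophil markers were higher by 1 or more in CD11b+ GMP-P, and the median of their summed level was 10.5 for GMP and 18.2 for CD11b+ GMP-P. Erythroid and megakaryocyte markers were at 0 in every cell for 6 of 10 genes, and lymphoid markers for 7 of 8. GMP cells had 2796 to 6383 genes above 0 (median 5461) and CD11b+ GMP-P cells 2435 to 6161 (median 4147). Reads per cell cannot be read from TPM, so sequencing depth is unknown. An exact 0 is a listed value and not proof of absence: Hprt, a gene nearly every cell uses, was listed at 0 in 1 GMP cell and 8 CD11b+ GMP-P cells, Pgk1 in 2 CD11b+ GMP-P cells and Rplp0 in 1.

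Other gene groups were lower beside the factors. Their counts stand beside 32.0% lower and 2.61% higher among all tested genes, whose median was -0.56. Of 10 genes used by nearly every cell, 5 were lower and 2 higher, with a median of -1.16; Hprt differed by -2.63, the ribosomal gene Rplp0 by -2.10 and the elongation factor gene Eef1a1 by -1.72. Of 8 monocyte and dendritic markers 7 were tested and 5 were lower, with a median of -2.79, and their summed level had a median of 9.21 in GMP and 5.33 in CD11b+ GMP-P. Their part in the values of the factors was not tested.

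Within CD11b+ GMP-P, 14 cells had little Elane, the primary granule protease neutrophil elastase, and 31 had much, split at a level of 9. This split was drawn with earlier results of these data known and cuts a range of levels rather than defining a cell type. The highest level below it was 8.79 and the lowest above it 9.74, and 3 cells lay within 1 of it. Medians of the late granule gene Camp were 15.6 in Elane-low and 8.98 in Elane-high cells, and those of Mpo 3.24 and 12.3. Elane-low cells also had fewer genes above 0 (2435 to 3841) than the Elane-high median of 4525.

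Myb was the most abundant of the factors in both populations and lower at each step. Its level was 0.32 at the lowest, 6.86 at the median and 8.82 at the highest in GMP, with a mean of 6.42 ± 1.89 (SD, n = 46). In CD11b+ GMP-P it ran from 0 through a median of 4.63 to 8.57, with a mean of 4.03 ± 3.17 (SD, n = 45). The ranges overlapped almost fully at the top, and the CD11b+ GMP-P cells separated at the bottom, where 7 of them were listed at 0. At 10 TPM or more Myb was in 43 of 46 GMP cells (93.5%), against 27 of 45 CD11b+ GMP-P cells (60%, interval 44.3% to 74.3%).

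The difference in mean was -2.39, or -1.83 relative to the median of the tested genes, and 6.67% of tested genes were lower still. Mean TPM was 149 and 77.2, and the log2 ratio of these means, each with 1 added, was -0.94, short of the call. Mean Myb was 4.97 ± 2.95 in Elane-high CD11b+ GMP-P (n = 31) and 1.95 ± 2.68 in Elane-low cells (n = 14). The median was 5.81 in the former and 0.25 in the latter, yet 5 of the 14 Elane-low cells still held 10 TPM or more.

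Lmo2 followed another pattern. In GMP it ran from 0 through a median of 5.13 to 8.55 and was above 0 in 42 of 46 cells (91.3%). In CD11b+ GMP-P it ran from 0 through 4.01 to 8.75 and was above 0 in 28 of 45 cells (62.2%, interval 46.5% to 76.2%). The top of the 2 ranges was alike, and cells with Lmo2 had medians of 5.34 in GMP and 5.67 in CD11b+ GMP-P.

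Mean Lmo2 was 4.70 ± 2.32 for GMP and 3.43 ± 3.17 for CD11b+ GMP-P, which differed by -1.27. The 2 sides of the Elane split differed far more than the 2 populations. Mean Lmo2 was 4.72 ± 2.79 in Elane-high CD11b+ GMP-P, which differed from GMP by 0.017, and 0.59 ± 1.82 in Elane-low cells, where 2 of 14 cells were above 0 (14.3%, interval 1.78% to 42.8%). Lmo2 was listed at 0 in all 3 GMP cells with Elane below 9. Of the basophil, mast cell and eosinophil markers, Gata2 was at 10.1, 11.5 and 8.73 in these cells (8, 11 and 42). In the same order Ms4a2, an IgE receptor subunit, was at 9.63, 9.45 and 10.4. Other markers of that list varied: in cells 8, 11 and 42 Mcpt8 was at 10.9, 10.8 and 0 and Fcer1a at 9.97, 6.01 and 0. Prg2 and Epx were at 0 in all 3. On the TPM scale the means of Lmo2 were almost equal, 62.9 for GMP against 62.7 for CD11b+ GMP-P (log2 ratio -0.0041). With cells rescaled by the median of gene ratios the difference was -0.78, so the call for Lmo2 held on neither scale.

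**Figure D2:**
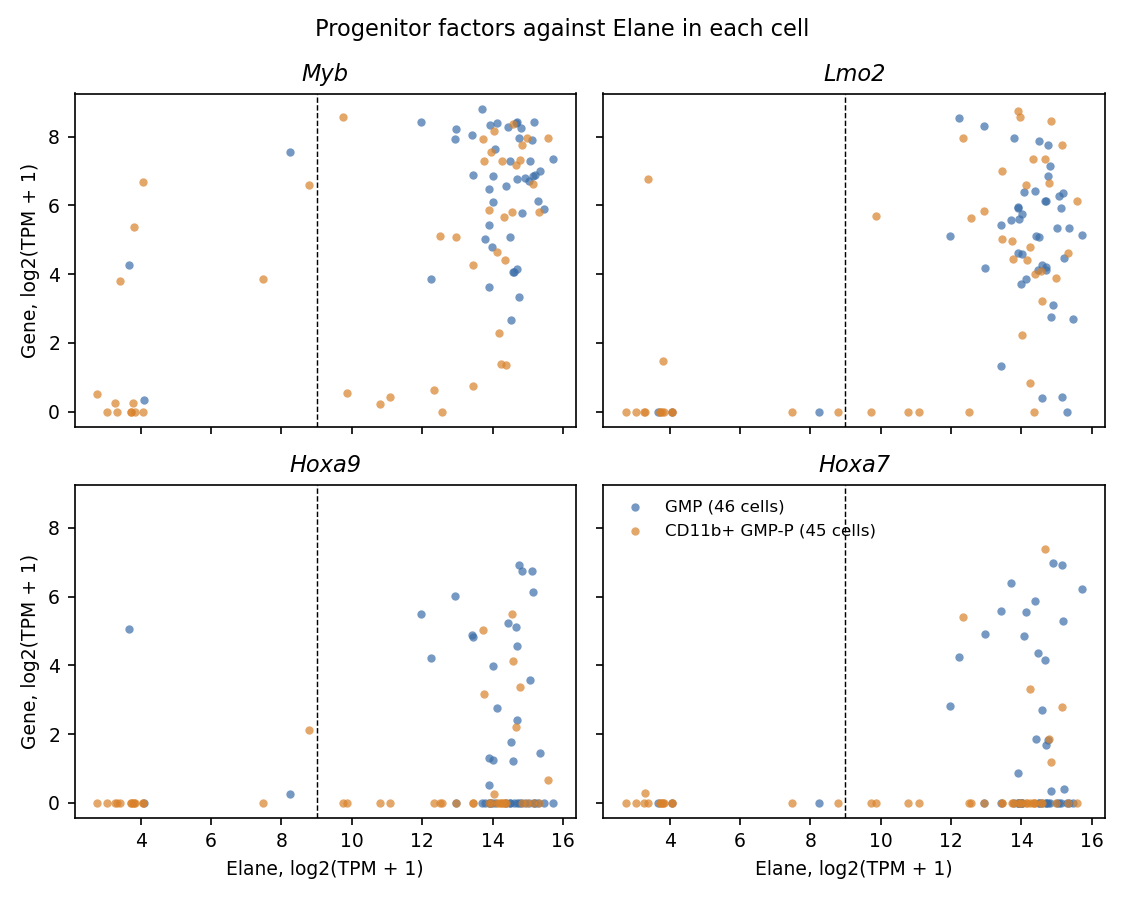
Levels of Myb, Lmo2, Hoxa9 and Hoxa7 against the level of Elane in the same cell, both in log2(TPM + 1), 1 point a cell, with the line at the Elane split of 9. Lmo2 lay at 0 in 12 of the 14 CD11b+ GMP-P cells left of the line, while Myb was spread from 0 to high levels there.

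Hoxa9, the homeodomain factor of the HoxA cluster best known from myeloid leukaemia, was found in some GMP cells and few CD11b+ GMP-P cells. It was above 0 in 24 of 46 GMP cells (52.2%, interval 36.9% to 67.1%) and in 9 of 45 CD11b+ GMP-P cells (20%, interval 9.58% to 34.6%). The lowest level was 0, the median 0.39 and the highest 6.91 in GMP, against 0, 0 and 5.51 for CD11b+ GMP-P. Means were 2.01 ± 2.47 and 0.59 ± 1.42, a difference of -1.42. The ranges overlapped, and most CD11b+ GMP-P cells were at 0. Among cells with Hoxa9, the median was 4.40 for GMP and 3.16 for CD11b+ GMP-P. Unlike Lmo2, Hoxa9 was already low in Elane-high CD11b+ GMP-P, with a mean of 0.79 ± 1.64 and 8 of 31 cells above 0. The difference of that subset from GMP was -1.22.

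Hoxa7, its neighbour in the cluster, had a similar profile. It was above 0 in 21 of 46 GMP cells (45.7%), against 7 of 45 CD11b+ GMP-P cells (15.6%, interval 6.49% to 29.5%). Levels ran from 0 through a median of 0 to 6.99 in GMP and from 0 through 0 to 7.39 in CD11b+ GMP-P, so the highest cell was in the population with the lower mean. That cell alone, CD11b+ GMP-P cell 55 at 166.7 TPM, held 73.5% of the summed Hoxa7 TPM of its population. Means were 1.82 ± 2.48 and 0.49 ± 1.48, a difference of -1.33, and Elane-high CD11b+ GMP-P differed from GMP by -1.12. In that subset 20.8% of all tested genes, and 29.5% of those with a GMP mean of 1 or more, were lower than in GMP by 1 or more, as were Myb, Hoxa9 and Hoxa7 among the factors.

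Cells with Hoxa9 held Hoxa7 about as often as cells without it. Of the 46 GMP cells, 11 had both above 0, 13 Hoxa9 alone, 10 Hoxa7 alone and 12 neither. Hoxa7 was in 45.8% of cells with Hoxa9 and in 45.5% of cells without it, and Pearson's correlation of their levels was 0.023 over the 46 cells. In CD11b+ GMP-P 2 cells had both, 7 Hoxa9 alone, 5 Hoxa7 alone and 31 neither.

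The other HoxA genes were almost absent. Hoxa10, the next gene of the cluster, was above 0 in 1 GMP cell (cell 10, 27.8 TPM) and in 0 of 45 CD11b+ GMP-P cells, which allows a share of cells above 0 of up to 6.67% by the limit of 3 counts and 7.87% by the exact interval. Hoxa4, Hoxa6, Hoxa11 and Hoxa13 were at 0 in every cell. Of 8 HoxB genes, 6 were at 0 in every cell, and Hoxb4 alone passed that filter, with means of 0.23 in GMP and 0.10 in CD11b+ GMP-P.

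The promoters of Hoxa9, Hoxa7 and Myb are shown because GFI1, whose mutant form all these cells carry, recognises a short AATC core and these 3 factors were lower in Elane-high CD11b+ GMP-P. Each line gives the 250 bases before the start annotated by RefSeq on GRCm38.p6, all on the minus strand, with AATC or its complement GATT in capitals. A stretch of bases just after the start was found in a GENCODE transcript of the same gene for Hoxa9 and Myb, but not for Hoxa7. Hoxa9 is at chr6:52227371-52227620, Hoxa7 at chr6:52218574-52218823 and Myb at chr10:21160985-21161234.
Hoxa9: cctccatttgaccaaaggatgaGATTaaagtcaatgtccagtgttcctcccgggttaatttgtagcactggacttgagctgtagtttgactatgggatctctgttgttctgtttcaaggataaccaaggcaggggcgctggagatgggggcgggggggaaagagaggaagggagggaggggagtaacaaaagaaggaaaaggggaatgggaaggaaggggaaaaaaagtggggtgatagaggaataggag
Hoxa7: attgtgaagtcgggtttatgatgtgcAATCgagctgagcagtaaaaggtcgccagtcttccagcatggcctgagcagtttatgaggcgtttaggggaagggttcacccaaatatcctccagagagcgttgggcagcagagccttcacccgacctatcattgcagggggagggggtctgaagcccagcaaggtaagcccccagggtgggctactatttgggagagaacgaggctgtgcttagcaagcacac
Myb: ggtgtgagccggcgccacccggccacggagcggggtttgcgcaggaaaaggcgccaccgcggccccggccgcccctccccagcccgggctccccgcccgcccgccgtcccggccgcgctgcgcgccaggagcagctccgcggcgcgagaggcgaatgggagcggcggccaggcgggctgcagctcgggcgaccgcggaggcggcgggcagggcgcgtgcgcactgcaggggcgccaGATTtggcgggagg

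Each of these windows held 1 match. Of the factors not lower by 1 or more, Sox4 had 4 matches, Hlf 2 and Meis1 0. Hoxa10 windows had 5 and 1, and Mecom windows 4 and 4. AATC or GATT was in 69.02% of 32851 RefSeq promoter windows of this length, with a median of 1 match, the same number as in the 3 shown. The longer core AATCAC was in none of the windows of the 8 factors in that table and in 9.14% of all windows. The MYB core AACNG, searched on both strands, matched at 2 places in Hoxa9, 1 in Hoxa7 and 0 in Myb, and was in 74.2% of all windows. A match is a run of letters and not a bound site.

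Meis1, the TALE partner of HOXA9, was sparse and rested on few cells. It was above 0 in 10 of 46 GMP cells (21.7%), against 4 of 45 CD11b+ GMP-P cells (8.89%), with highest levels of 8.47 and 7.02 and a median of 0 in both. Means were 0.95 ± 2.15 and 0.38 ± 1.36, a difference of -0.56 that equals the median of the tested genes. By mean TPM the log2 ratio was -1.77, but GMP cell 11 held 50.2% of the summed Meis1 of GMP, and without it the ratio was -0.87. CD11b+ GMP-P cell 57 held 75.2% of the Meis1 of its own population, and without the highest cell of each population the ratio was -2.16, a setting chosen after seeing the data.

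GMP cell 11 was 1 of the 3 GMP cells with Elane below 9. It held 60.9% of the summed Hlf of GMP, had Myb at 0.32, and had 2796 genes above 0, the fewest of any GMP cell. Its Cpa3, a protease of mast cells and basophils, was at 14.2 and its Gata2, a factor of stem, mast and basophil cells, at 11.5. The other 2, GMP cells 8 and 42, had Cpa3 at 12.3 and 5.23 and 3961 and 3067 genes above 0, and Meis1 and Hlf were listed at 0 in both. Over the 9 basophil, mast cell and eosinophil markers the summed level ran from 0.24 through 8.86 to 14.6 in GMP and from 0 through 4.17 to 17.002 in CD11b+ GMP-P. Of the 6 tested markers 3 were lower, beside 32.0% of all tested genes, and none of the 9 was at 0 in every cell. Their part in the Meis1 and Hlf values was not tested beyond the ratios given without single cells.

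In GMP Meis1 was found about as often with Hoxa9 (20.8% of cells) as without it (22.7%). There 5 cells had both above 0, 19 Hoxa9 alone, 5 Meis1 alone and 17 neither (correlation -0.014, n = 46). In CD11b+ GMP-P 3 cells had both, 6 Hoxa9 alone, 1 Meis1 alone and 35 neither (correlation 0.27, n = 45). At 10 TPM or more 0 of these CD11b+ GMP-P cells had both. A further pairing was singled out after the values were seen. At 10 TPM or more, Meis1 was in 1 of 36 GMP cells with Gfi1 at that level and in 4 of 10 without it. Those 4 included cell 11, with Elane below 9, and cell 41, whose Gfi1 level of 3.44 was just under that floor. In CD11b+ GMP-P Meis1 at 10 TPM or more was in 1 of 23 cells with Gfi1 and 1 of 22 without. Above 0 the GMP shares were 21.4% and 25%, so the contrast in shares appeared at 1 threshold in 1 population. The correlation of the 2 levels was -0.32 over the GMP cells and -0.013 over the CD11b+ GMP-P cells. Hoxa9 at 10 TPM or more was in 11 of 36 GMP cells with Gfi1 and 4 of 10 without.

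For Irf8, Hoxa9 at 10 TPM or more was in 9 of 35 GMP cells with Irf8 at that level and 6 of 11 without. The correlation of the 2 levels was -0.31 over the 46 GMP cells and 0.45 over the 45 CD11b+ GMP-P cells, where all 3 cells with Hoxa9 at 10 TPM were among the 18 with Irf8. This pair was also picked with values known.

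Sox4, an HMG-box factor of early progenitors, was above 0 in 15 of 46 GMP cells (32.6%), against 2 of 45 CD11b+ GMP-P cells (4.44%). Its highest levels were 5.17 and 3.59, its medians 0, and its means 0.75 ± 1.46 and 0.13 ± 0.64. The difference was -0.62, within 1, and the log2 ratio of mean TPM was -1.48. Only 4 GMP cells and 1 CD11b+ GMP-P cell held 10 TPM or more. Every cell with Sox4 also had Myb, but all 46 GMP cells had Myb, so this was fixed in advance for GMP. It rests on the 2 CD11b+ GMP-P cells alone, in a population where Myb was above 0 in 38 of 45.

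Hlf and Mecom, factors of long-term stem cells, were at the limit of detection. Hlf, a PAR-type leucine zipper protein, was above 0 in 3 cells of each population, with highest levels of 4.55 in GMP and 0.86 in CD11b+ GMP-P. Mecom, a zinc-finger factor with a PR domain, was in 0 of 46 GMP cells (up to 6.52% by the limit of 3 counts and 7.71% by the exact interval), and in 1 CD11b+ GMP-P cell (cell 75, 1.44 TPM). It was the only factor with a higher mean in CD11b+ GMP-P, by 0.029. The stem cell surface genes Fgd5 and Esam were at 0 in every cell.

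**Figure D3:**
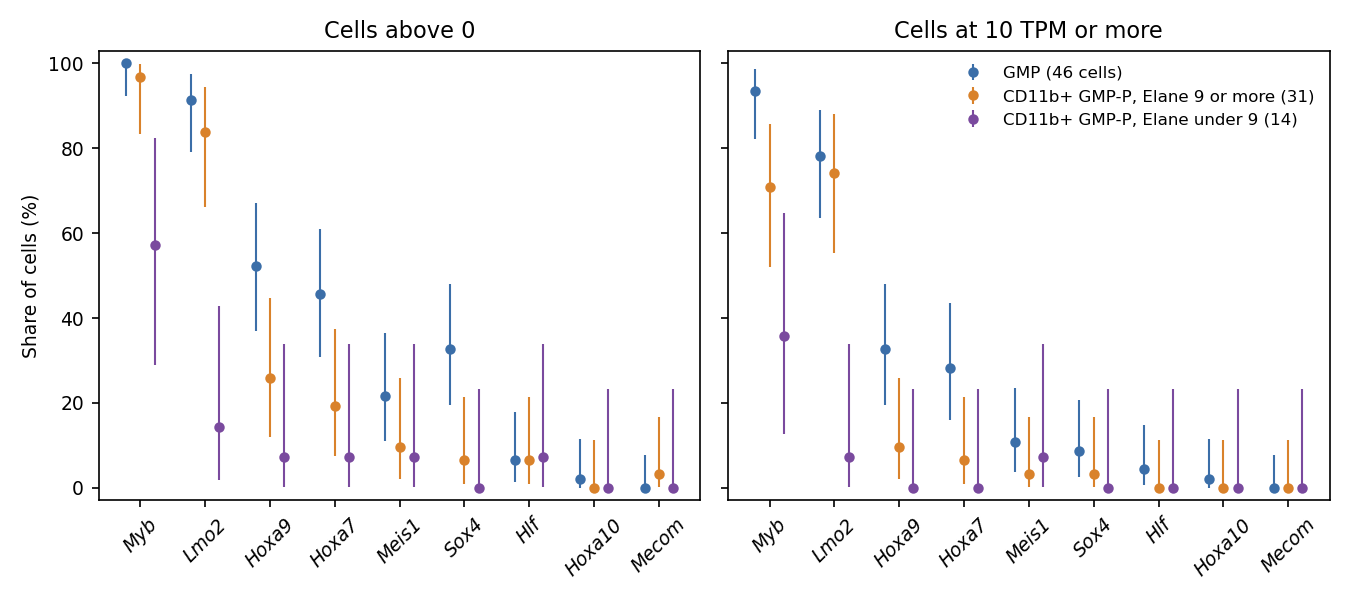
Share of cells (percent, with exact 95% intervals that cover counting error only) with each factor above 0 on the left and at 10 TPM or more on the right, for GMP (n = 46), Elane-high CD11b+ GMP-P (n = 31) and Elane-low CD11b+ GMP-P (n = 14). On the left, Lmo2 was in 26 of 31 Elane-high and 2 of 14 Elane-low cells, and Hoxa9 in 8 of 31 and 1 of 14.

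By mean level in GMP the order was Myb, Lmo2, Hoxa9, Hoxa7, Meis1, Sox4, Hlf, Hoxa10 and Mecom. The gap of 2.69 between Lmo2 and Hoxa9 was the only one between neighbours that exceeded the larger SD over cells, and Myb was above Lmo2 in 37 of 46 cells. In CD11b+ GMP-P the order was the same except that Mecom stood above Hoxa10. No gap there exceeded the larger SD, and Myb was above Lmo2 in 23 cells, below it in 16 and level with it in 6. In Elane-high cells alone the count was 16 above and 15 below.

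Counted per cell, 3.52 ± 1.09 of the 9 factors were above 0 in GMP (range 2 to 6) and 2.04 ± 1.38 in CD11b+ GMP-P (range 0 to 6). Every GMP cell had at least 2. Elane-high CD11b+ GMP-P had 2.52 ± 1.29, and the 5 cells with none were all Elane-low, whose mean was 1.0 ± 0.96. In CD11b+ GMP-P the number of genes above 0 moved with this count. Pearson's correlation between them was 0.16 over 46 GMP cells and 0.79 over 45 CD11b+ GMP-P cells, and both measures count genes above 0 in the same cells.

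**Figure D4:**
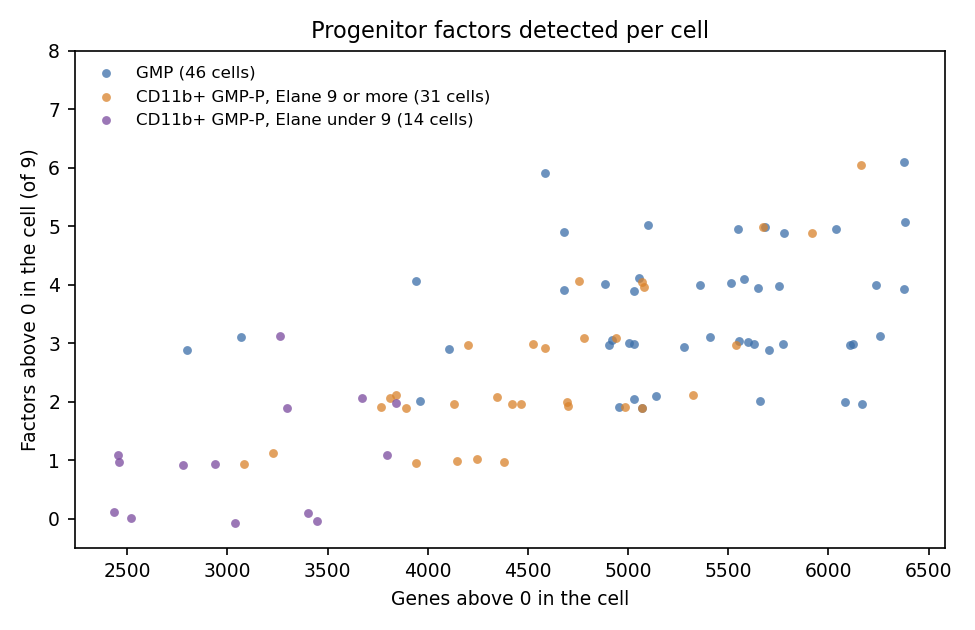
Number of the 9 factors above 0 in each cell against the number of genes above 0 in that cell, 1 point a cell, by population and Elane side. GMP cells had 2 to 6 factors, and those with 5 or 6 had 4584 genes or more above 0. In CD11b+ GMP-P the cells with few genes had few factors.

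The values were therefore set side by side in the 26 GMP and 21 CD11b+ GMP-P cells with 3947 to 5645 genes above 0, a range both populations covered and which held no Elane-low CD11b+ GMP-P cell. There the differences were -1.55 for Myb, -1.23 for Hoxa9, -1.25 for Hoxa7 and 0.13 for Lmo2, beside a median of -0.22 for the tested genes, 17.8% of which were lower by 1 or more. Hoxa9 was above 0 in 14 of 26 and 5 of 21 of these cells, Hoxa7 in 11 and 4, Sox4 in 10 and 1, and Lmo2 in 24 and 19. In this range Myb, Hoxa9 and Hoxa7 were lower by 1 or more and Lmo2 was within 1. The range changes genes detected and the Elane side of the cells together, and the part of either was not tested. With a pseudocount of 10 in place of 1, over all cells, Myb alone was lower by 1 or more, and Hoxa9 and Hoxa7 differed by -0.62 and -0.56.

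**Figure D5:**
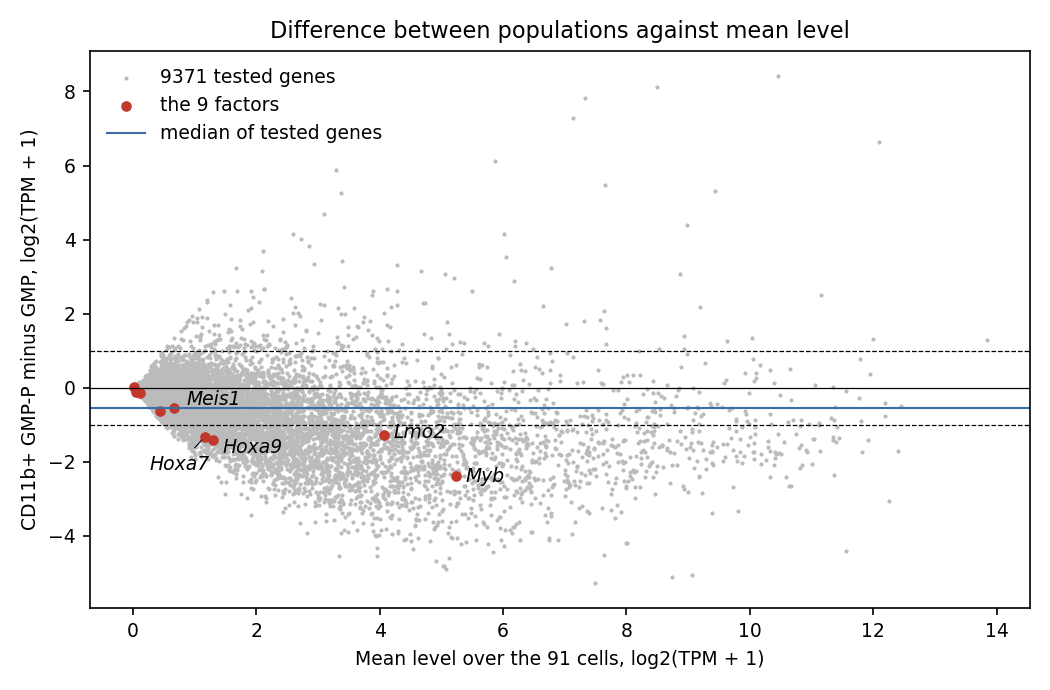
Difference of means, CD11b+ GMP-P minus GMP in log2(TPM + 1), against the mean level over the 91 cells, for the 9371 tested genes (grey) and the 9 factors (red). Lines stand at 0, at 1 and -1 (dashed) and at the median of the tested genes (blue); Myb lay lowest of the 9 at -2.39, and Meis1 at the median.

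Elane-low and Elane-high CD11b+ GMP-P cells were then compared. Of the tested genes 37.6% were lower and 2.01% higher in Elane-low cells, with a median difference of -0.68. Lmo2 differed by -4.13 and Myb by -3.02. Hoxa9 and Hoxa7 had Elane-high means of only 0.79 and 0.71, so neither could be lower by 1. Their differences of -0.63 and -0.69 left means of 0.15 and 0.02. Gfi1 itself had means of 4.87 in Elane-high and 1.56 in Elane-low cells, and Irf8 4.29 and 1.69.

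The partners of these factors did not share one direction. Of 9 TALE homeodomain partners 5 were tested and all 5 were within 1, with a median of 0.34 against -0.56 for the tested genes. Pbx4 differed by -0.64 between the populations and Pbxip1, which binds PBX proteins, by 0.51.

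Of 15 partners of the Lmo2 complex, 12 were tested, of which 5 were lower, 0 higher and 7 within 1. Among all tested genes 32.0% were lower, and 45.6% of those with a GMP mean of 1 or more. The 5 were Tcf4 (-1.88), Ssbp3 (-1.78), Gata2 (-1.76), Cbfa2t3 (-1.47) and Lyl1 (-1.33). Lyl1, a basic helix-loop-helix partner of LMO2, had a mean of 2.99 in Elane-low cells where Lmo2 was at 0.59, whereas the corepressor gene Cbfa2t3 had 0.0079 there. Of 6 genes for MYB relatives and coactivators, Mybbp1a, a nucleolar MYB-binding protein, was lower by 1 or more (-2.86) and the other 5 were within 1.

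Of 13 MLL and menin complex genes, which maintain HoxA transcription, 12 were tested. The counts here stand beside 32.0% lower and 2.61% higher among all tested genes. Ash2l (-1.39) and Men1 (-1.27) were lower and 10 were within 1, with a list median of -0.57. Of 13 other progenitor factors, 9 were tested and 4 were lower, namely Myc (-3.54), Etv6 (-1.999), Gata2 and Cdk6 (-1.38). Fli1, an ETS factor of stem cells, had means of 6.81 and 6.13 and was above 0 in 45 GMP and 42 CD11b+ GMP-P cells.

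Of 13 genes reported in other work as targets of Myb, Hoxa9 or Meis1, 10 were tested, 5 were lower and 2 higher. Among all tested genes 32.0% were lower and 2.61% higher. The differences were -4.68 for Cd34, -4.40 for Mpo and -3.54 for Myc, and 3.54 for Cybb, an oxidase subunit of phagocytes. These lists were chosen with results of these data known, so their counts are descriptions.

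Genes most like each factor were taken from the 3179 or 3180 others above 0 in most cells of each population, by Pearson's correlation over the 91 cells after each population's mean was subtracted. For Myb these were Eef1g (0.63), Rps20 (0.63) and Srgn (0.62), the last with 0.10 in GMP and 0.73 in CD11b+ GMP-P. For Lmo2 they were Prtn3 (0.58), Ndufa11 (0.58) and Elane (0.57), with 0.42 in GMP and 0.64 in CD11b+ GMP-P for Elane. For Hoxa9 they were Gnl2 (0.40), Tufm (0.39) and Rsl1d1 (0.35), weaker over the 91 cells. Within GMP alone Gnl2 was at 0.49, beside 0.45 for Eef1g with Myb and 0.48 and 0.50 for Prtn3 and Ndufa11 with Lmo2. The cells also differ in genes detected, which bears on all genes of a cell at once.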

How the data were processed

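Single-cell libraries were made with the SMARTer and Nextera XT kits, per the labels' protocols, without molecular identifiers or strand marks. The authors deposited 1 table of log2(TPM + 1) values. RSEM and mm9 are named per the submitters' processing notes; no aligner or annotation is named in what was read here. All 91 columns matched a sample and TPM summed to nearly the same total in every cell, so depth is unknown. Reads of Myb, Meis1, Sox4, Mecom and Hoxa7 cannot be told from those of overlapping antisense genes, nor Hoxa9 from Mir196b.

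Values were used as deposited (Python 3.11.15, numpy 2.4.6, pandas 2.3.3, scipy 1.17.1). No cell was removed and no doublet caller was run. A gene was tested where at least 10% of the 91 cells were above 0, and a call is a difference in means of 1 or more. The scripts were tested on simulated data. Members and lists were chosen with earlier results of these data known. The text names all members, Gfi1, Irf8 and Elane, up to 4 genes with the largest difference per list and 3 most correlated genes per member; other names and the Gfi1 and Irf8 pairs were chosen after values were seen. Promoters are from RefSeq GRCm38.p6, which holds 8 of the 9 members, and no coordinate was moved to mm9. A few genes of the lists are not reported here by name. Alternatives were other pseudocounts, filters, scalings, cell subsets and detection floors.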

Additional observations from a re-analysis of the deposited data

How the results depend on the processing

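Of 148 values recomputed under the alternatives, 144 kept their direction or were never called, and moved by less than the SD over cells (counts of factors by under 1.5 times, medians by under 0.5). With a pseudocount of 10 only 1 factor (Myb) stayed lower by 1 or more, against 4, and with 0.1 there were 5. With no filter on low genes the members' median relative to all genes was -0.62, against -0.06 with it, because the median of all genes was then 0. Lmo2 changed sign under 2 settings: it differed by 0.13 in the shared range of genes detected and by 0.017 without CD11b+ GMP-P cells with Elane under 9. Rescaling cells by the median of gene ratios moved the median of the tested genes from -0.56 to -0.31, and lower genes from 92.5% to 82.1% of calls (1903 lower and 416 higher). Across the 11 settings Myb ran from -3.18 to -0.94, Hoxa9 from -2.42 to -0.62 and Hoxa7 from -2.26 to -0.56. Leaving out cells with Elane under 9 from both populations (chosen after seeing the data) gave 3 lower factors and -0.31 for Lmo2. No paired analysis was possible because the labels name no animal and no number is shared. Counts in 14 Elane-low cells are coarse, and 1 sample a population allows no test.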

Other observations

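The genes of the sorting gate were read beside the factors. Kit, which encodes CD117, was at 10 TPM or more in 26 of 46 GMP and 3 of 45 CD11b+ GMP-P cells, and in none of the 14 Elane-low cells, although the labels give all cells as CD117-positive. Cd34 was at that level in 41 GMP cells and 14 CD11b+ GMP-P cells, all 14 of them Elane-high. Fcgr3, which encodes CD16, was at that level in 45 and 39 cells. Ly6a, which encodes Sca-1, was at 10 TPM or more in 40 GMP and 41 CD11b+ GMP-P cells, with means of 5.51 ± 2.23 and 5.74 ± 1.59, in cells labelled Sca-1-negative. Ly6a belongs to a gene family, and how counting assigned reads among its members was not tested.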
